A study of Homo sapiens with 2 samples.

Results

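Collagens, laminins and integrins are the proteins that build the extracellular matrix and hold cells to it. The genes described here were chosen by symbol, as every collagen chain (COL, a number, A and a number), every laminin alpha, beta or gamma chain and every integrin alpha or beta chain with a number in its symbol, together with FN1 and VIM. This rule used no measured value and found 78 of the 33694 genes in the files. The 78 genes are 44 collagen chains, 12 laminin chains, 20 integrin chains, fibronectin (FN1) and vimentin (VIM).

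The cells were human eBCs (beta cell clusters made from embryonic stem cells) of the iSOX9KO line, read by single cell RNA-seq on the 10X Genomics platform. iSOX9KO was made from Mel1-INS-GFP, a human embryonic stem cell line with GFP at the insulin gene, and carries in AAVS1 a doxycycline-inducible Cas9 and 3 guides against SOX9 that are always transcribed. By the methods of the study the line is 1 clone, so the cells of both libraries carry the same cassette. The eBCs were reaggregated from sorted GFP-high cells, and live cells were sorted before capture. There was 1 library without doxycycline (no DOX) and 1 with doxycycline at 2 ug/ml from day 12 of differentiation (DOX). With 1 library per condition there was no spread between replicates, so no difference was tested, and all intervals given below are 95% intervals that cover counting error only.

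After low counts and doublets were removed, 21808 cells of the no DOX-labelled library and 23118 of the DOX-labelled library were kept, with medians of 13957.5 and 12667 unique molecular identifiers (UMIs) per cell. The libraries shared 369 cell barcodes, of which 141 were kept as cells in both. SOX9 (chromosome 17 from 72121020 to 72126416, GRCh38), the gene the guides target, stood at 3.0 CPM (UMIs per 1000000 UMIs) over all cells of the no DOX-labelled library and at 3.78 CPM in the DOX-labelled one, a log2 ratio of 0.33 (0.21 to 0.46). In duct-like cells, which held 1493 of the 2093 SOX9 UMIs, its level was 253 and 283 CPM, a log2 ratio of 0.16 (0.01 to 0.31). The targeted transcript was thus not lower in the DOX-labelled library. The libraries are therefore called by what their labels say, and any direction given between them rests on this. An exchange of the labels, which would turn each of these directions, was not tested. The study checked the loss of SOX9 in this line by cutting of its DNA and by protein, which the transcript level does not measure.

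A basement membrane is a thin sheet in which laminin trimers and a network of collagen IV are joined by nidogens and perlecan, and integrins in the cell membrane bind it from the cell side. In the pancreas, basement membranes surround ducts, acini and the capillaries of islets. Fibronectin is a matrix glycoprotein bound by several integrins, and vimentin is the intermediate filament of mesenchymal and many migrating or immature cells. Fibril-forming collagens (COL1, COL2, COL3, COL5, COL11, COL24 and COL27 chains) are commonly made by connective tissue cells.

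Collagen IV genes lie in head-to-head pairs that share a promoter region, and their protein chains combine in fixed trimers. Bases between the start sites of 2 pairs are shown because all 4 of their genes were higher in duct-like than in endocrine cells, as described below. Sequences are from RefSeq on GRCh38.p14, plus strand, with capitals at every GGGCGG and CCAAT on either strand. The first lies at chr13:110307158-110307283, between COL4A1 on the minus strand and COL4A2 on the plus strand, whose starts are 127 bases apart. The second is the part shared by the promoter windows of COL4A6 on the minus strand and COL4A5 on the plus strand, at chrX:108439588-108439708, and these starts are 380 bases apart.
COL4A1 and COL4A2: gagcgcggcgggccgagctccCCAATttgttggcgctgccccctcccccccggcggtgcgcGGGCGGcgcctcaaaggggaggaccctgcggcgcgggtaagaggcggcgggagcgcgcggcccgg
COL4A5 and COL4A6: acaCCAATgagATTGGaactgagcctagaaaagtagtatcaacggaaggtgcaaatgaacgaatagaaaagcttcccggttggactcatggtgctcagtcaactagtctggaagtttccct
The first stretch is 80.2% G and C and holds 1 GGGCGG and 1 CCAAT, and the second is 44.6% G and C and holds 2 CCAAT and no GGGCGG. Of 35116 promoters of RefSeq genes (250 bases before to 50 after the start), 45.0% hold GGGCGG and 34.6% hold CCAAT on either strand. These counts describe the letters only. By the annotation (GENCODE 44) COL4A1 runs from 110148963 to 110307157 and COL4A2 from 110305812 to 110513209 on chromosome 13, so that their ends overlap on opposite strands.

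The cells fell into 6 named classes, built from markers after all 78 genes were left out of the clustering. The 330 duct-like cells were the smallest class, followed by 965 proliferating progenitor-like, 4580 delta-like, 9179 alpha-like, 10885 beta cell progenitor-like and 16635 beta-like cells. A cluster of 2352 cells led by mitochondrial genes had a median of 1980.5 UMIs and stayed unnamed. The 78 genes took 0.109% of the UMIs of the no DOX-labelled library and 0.101% of the DOX-labelled one. Their share was 0.413% and 0.248% in duct-like cells and 0.0681% and 0.0640% in beta-like cells of these libraries.

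Of the 78 genes, 41 reached 5 CPM in at least 1 named class, 21 reached 20 CPM and 22 stayed under 1 CPM in every class. Among the 41, duct-like cells had the highest level for 28, beta cell progenitor-like cells for 5, alpha-like cells for 4, delta-like cells for 3 and beta-like cells for 1. Of the 41, 23 reached 5 CPM in an endocrine class. The others could be highest only in duct-like or proliferating progenitor-like cells. The share of all genes highest in duct-like cells was not read, so the count of 28 is a description only. The genes under 1 CPM include COL4A3, COL15A1, COL17A1, LAMA2, LAMA3, LAMC3, ITGB2, ITGB3 and ITGB4. The chains that make up the laminin and the integrin of hemidesmosomes (LAMA3, LAMB3, ITGB4) were at or below 3.33 CPM in every class over both libraries.

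**Figure D1:**
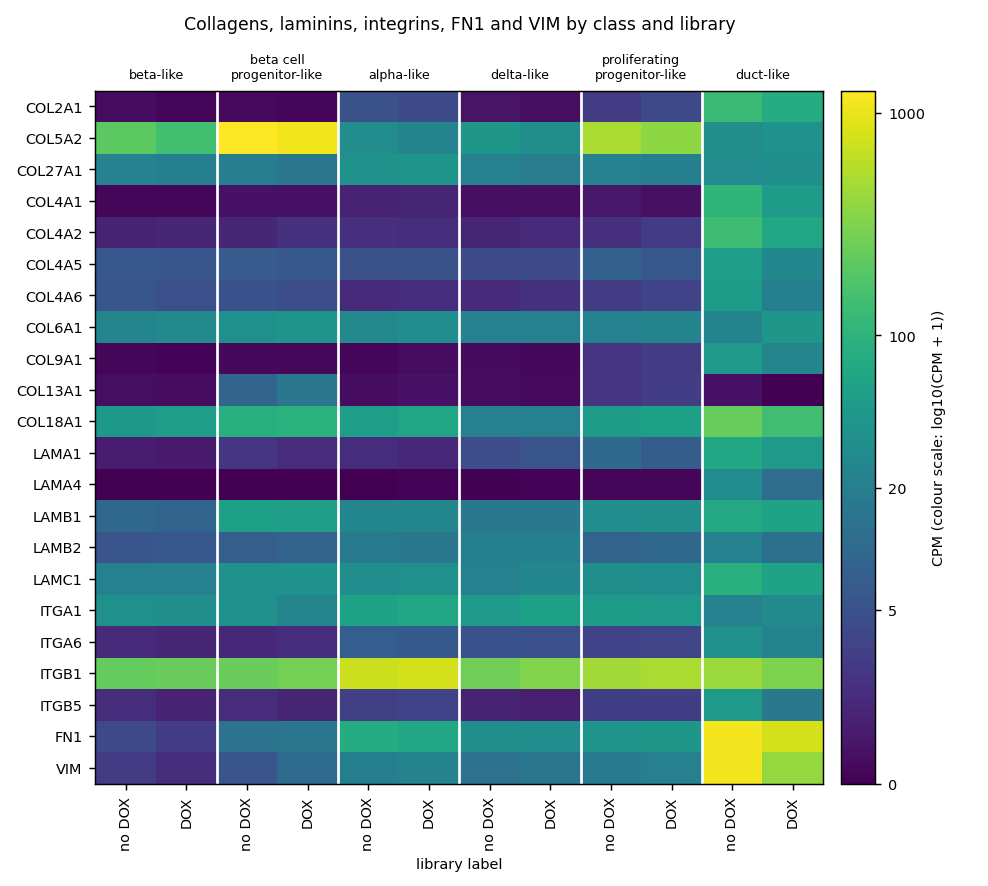
Levels of the 22 genes described by name (rows) in each class and library (columns), as CPM on a colour scale of log10(CPM + 1). Along its row COL5A2 is highest in the beta cell progenitor-like columns (1256 and 1091 CPM) and VIM in duct-like cells (1111 and 406 CPM).

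Duct-like cells held more transcript of most of the genes compared than endocrine cells did. Set against the 4 endocrine classes summed (alpha, delta, beta and beta cell progenitor-like), 38 of the 78 genes could be compared (at least 5 CPM in 1 of the groups and 30 UMIs over both). By a log2 ratio of at least 1, 29 were higher in duct-like cells, where 20.2% of the 11701 genes compared were higher, and 1 was lower, where 17.3% were lower. Duct-like cells alone brought 23 of the 38 to the minimum, so these were bound to lie on the higher side there. Of the 15 with at least 5 CPM in the endocrine classes, 7 were higher (46.7%) and 1 was lower (6.67%), against 11.2% and 19.7% of all genes at that level. Among the 7 are LAMA5, LAMB1 and LAMC1, whose calls hold over the summed endocrine classes only, as described below. The other 40 of the 78 were not compared.

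Vimentin and fibronectin transcripts were both higher in duct-like cells. VIM (ENSG00000026025, chromosome 10 from 17228241 to 17237593) stood at 1111 CPM in duct-like cells of the no DOX-labelled library and at 406 CPM in those of the DOX-labelled library. In the endocrine classes it stood at 8.62 and 8.55 CPM. Over both libraries the log2 ratio of duct-like over endocrine cells was 6.4 (6.34 to 6.46), and the levels of the duct-like cells lay far above the endocrine levels in each library. FN1 (ENSG00000115414, chromosome 2 from 215360440 to 215436073) had 1096 and 785 CPM in duct-like cells and 27.0 and 20.1 CPM in the endocrine classes, a log2 ratio of 5.29 (5.24 to 5.34).

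Of the 6 collagen IV genes 4 could be compared, and each was higher in duct-like cells. COL4A5 alone had 5 CPM or more in the endocrine classes, and the other 3 entered only through duct-like cells. COL4A1 and COL4A2 encode the chains of the collagen IV found in nearly all basement membranes. COL4A1 was at 106 and 49.2 CPM in duct-like cells and at 0.401 and 0.373 CPM in endocrine cells of the no DOX- and DOX-labelled libraries, a log2 ratio of 7.59 (7.36 to 7.83). COL4A2 was at 134 and 68.5 CPM against 1.18 and 1.37 CPM, a log2 ratio of 6.27 (6.10 to 6.43). COL4A5 and COL4A6, whose chains form another collagen IV, were less far apart. COL4A5 was at 53.8 and 26.9 CPM in duct-like cells and at 5.70 and 5.52 CPM in endocrine cells, a log2 ratio of 2.80 (2.59 to 3.0). COL4A6 was at 47.4 and 20.6 CPM against 4.08 and 3.89 CPM, a log2 ratio of 3.03 (2.81 to 3.25).

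Detection of the members of a pair in the same cells differed between classes. In duct-like cells COL4A2 had a UMI in 82.0% of the 172 cells with a COL4A1 UMI and in 46.8% of the cells without one. COL4A6 had a UMI in 52.3% of the 132 duct-like cells with a COL4A5 UMI and in 21.7% of the others. In beta-like cells the same shares for COL4A6 were 15.2% and 6.90%, in beta cell progenitor-like cells 10.6% and 4.90%, in alpha-like cells 3.13% and 1.78% and in delta-like cells 1.67% and 2.05%. Deeper cells hold more UMIs of every gene, so these shares describe the cells and depth was not held fixed.

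Laminins are trimers of an alpha, a beta and a gamma chain. Of 7 laminin genes compared, 6 were higher in duct-like cells, and of the 4 with at least 5 CPM in the endocrine classes 3 were, where 11.2% of all genes at that level were. These 3 calls (LAMA5, LAMB1 and LAMC1) hold over the summed endocrine classes only. Set against the single endocrine class with most of its transcript, none of the 3 genes reached the threshold. For LAMA5 that class was alpha-like, at 9.69 CPM against 18.2 CPM in duct-like cells over both libraries. For LAMB1 and LAMC1 it was the beta cell progenitor-like class. LAMA1, the alpha chain of laminin-111 of early epithelia, was at 71.9 and 46.9 CPM in duct-like cells of the no DOX- and DOX-labelled libraries and at 1.66 and 1.35 CPM in endocrine cells, a log2 ratio of 5.27 (5.08 to 5.45). LAMA4, an alpha chain of vessels, nerves and muscle, was at 30.9 and 11.8 CPM in duct-like cells and had 13 UMIs in all endocrine cells, a log2 ratio of 9.86 (9.03 to 10.81). The shared chains were present in every class. LAMB1 was at 73.5 and 59.7 CPM against 24.5 and 22.0 CPM, a log2 ratio of 1.5 (1.34 to 1.65). LAMC1, the gamma chain of most laminins, was at 87.2 and 60.0 CPM against 27.9 and 28.0 CPM, a log2 ratio of 1.37 (1.22 to 1.51) that was 0.97, under the threshold, with doublets kept. LAMB2, the beta chain of mature basement membranes, had a log2 ratio of 0.79 and did not pass the threshold.

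The collagens as a group had 16 of 20 genes higher and 1 lower, but 15 of the 20 entered only through duct-like cells. Of the 5 with at least 5 CPM in the endocrine classes 2 were higher and 1 lower (all genes at that level, 11.2% and 19.7%). COL2A1 and COL9A1 encode chains of the fibrils of cartilage, and COL2A1 is a known target of SOX9 in chondrocytes. COL2A1 was at 129 and 82.9 CPM in duct-like cells of the no DOX- and DOX-labelled libraries and at 1.30 and 0.850 CPM in endocrine cells, a log2 ratio of 6.59 (6.42 to 6.75). COL9A1 was at 45.8 and 24.6 CPM against 0.133 and 0.131 CPM, a log2 ratio of 8.01 (7.63 to 8.41). COL11A1 and COL9A3, also of cartilage fibrils, had log2 ratios of 9.11 and 9.68, each on fewer than 100 UMIs in duct-like cells (93 and 92). In duct-like cells COL9A1 had a UMI in 42.5% of the 214 cells with a COL2A1 UMI and in 12.9% of those without. COL18A1, the basement membrane collagen from which endostatin is cut, was at 237 and 139 CPM in duct-like cells and 53.0 and 60.6 CPM in endocrine cells, a log2 ratio of 1.69 (1.60 to 1.78). COL6A1 and COL27A1 had log2 ratios of 0.25 and 0.41 and were not called. Of the principal chains of connective tissue, COL1A2 was called higher in duct-like cells, at 9.39 against 4.12 CPM and a log2 ratio of 1.19 (0.76 to 1.58), while COL1A1 was at 3.61 CPM and COL3A1 at 0.361 CPM there. This call holds over the summed endocrine classes only, since delta-like cells had 11.2 CPM of COL1A2, with an interval that overlaps that of duct-like cells.

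Integrins pair an alpha with a beta chain. Of 9 integrin genes compared, 5 were higher in duct-like cells, and these 5 entered only through duct-like cells. Of the 4 with at least 5 CPM in the endocrine classes (ITGA1, ITGA3, ITGB1 and ITGB8) 0 were higher and 0 lower. ITGB1, the beta chain shared by the laminin, collagen and fibronectin receptors, differed little between duct-like and endocrine cells. It was at 423 and 313 CPM in duct-like cells of the no DOX- and DOX-labelled libraries and at 349 and 355 CPM in endocrine cells, a log2 ratio of 0.04 (-0.02 to 0.11), whose sign turned in 3 of 8 alternative settings. ITGA6, a partner of ITGB1 for laminin, was at 36.2 and 23.3 CPM against 3.15 and 2.50 CPM, a log2 ratio of 3.36 (3.12 to 3.59). ITGB5, part of a receptor for vitronectin, was at 46.2 and 17.0 CPM against 1.76 and 1.41 CPM, a log2 ratio of 4.25 (4.0 to 4.49). ITGA5, the alpha chain of the classical fibronectin receptor, had 46 UMIs in duct-like cells and 20 in all endocrine cells, a log2 ratio of 7.94 (7.15 to 8.78). ITGA1, an alpha chain of a collagen receptor, had a log2 ratio of -0.63 and was not called.

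**Figure D2:**
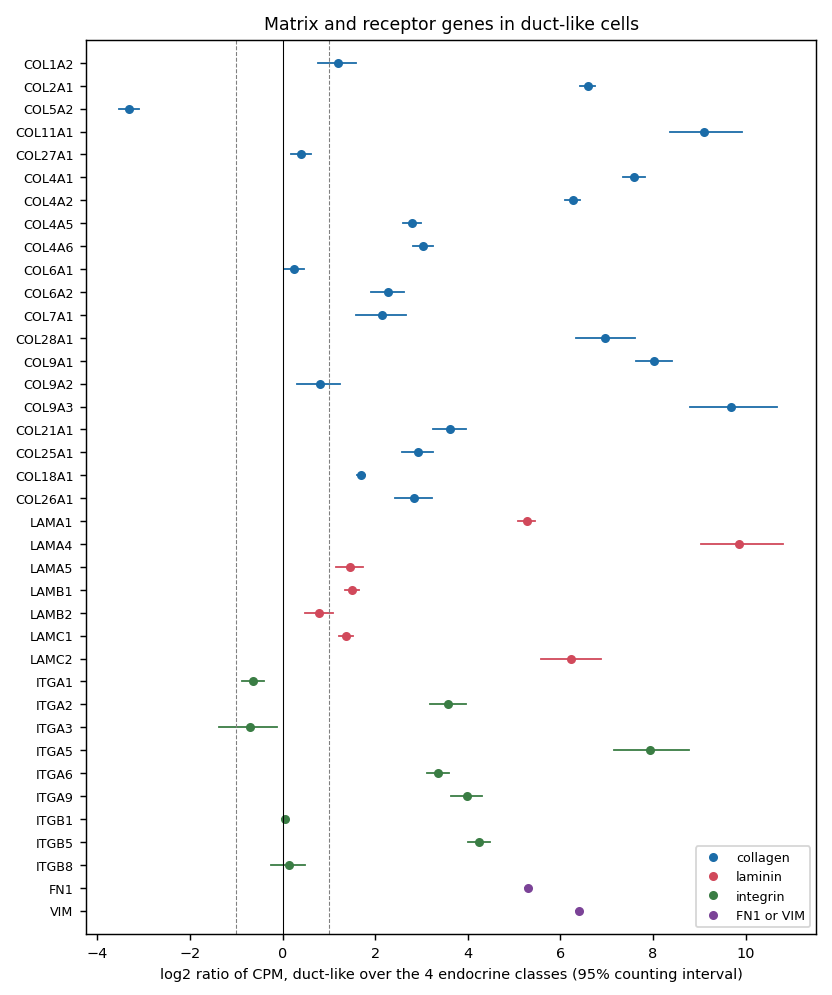
Log2 ratio of CPM in duct-like cells over the 4 endocrine classes for the 38 genes compared, both libraries summed, with 95% counting intervals. Dashed lines mark the threshold of 1 either way. COL5A2, at -3.31, is the gene left of the lower line, and LAMA4, at 9.86, lies furthest to the right.

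Genes outside the 78 that work with them were read in the same comparison. Of 10 other basement membrane genes 8 were compared and 7 were higher in duct-like cells (20.2% of all genes), 6 of the 8 entering only through duct-like cells. Of the 2 with at least 5 CPM in the endocrine classes 1 was higher, where 11.2% of all genes at that level were. Among the 6 were SPARC, a collagen-binding matrix protein (121 against 0.0761 CPM), FBLN1 (fibulin, 174 against 0.710 CPM), NID2 (nidogen, 25.1 against 0.137 CPM) and HSPG2 (perlecan, 31.9 against 0.631 CPM). Of 17 collagen-processing enzymes and chaperones compared, all with at least 5 CPM in the endocrine classes, 2 were higher and 4 lower, beside 11.2% and 19.7% of all genes at that level. SERPINH1, the collagen chaperone of the endoplasmic reticulum, was at 97.6 against 6.38 CPM, a log2 ratio of 3.93 (3.80 to 4.07), and CRTAP, part of a prolyl hydroxylase complex, at 49.4 against 5.14 CPM. The 4 that were lower were P4HA2, ADAMTS2, LOXL2 and LOXL4, and LOXL4, a lysyl oxidase, was at 7.22 against 39.4 CPM. Among 10 other matrix receptors compared 4 were higher, with the syndecan SDC1 at 36.1 against 0.766 CPM, and 2 were lower, BCAM (a receptor for laminin alpha 5) and DDR1 (a collagen receptor). The 4 that were higher entered only through duct-like cells. Of the 6 with at least 5 CPM in the endocrine classes 0 were higher and 2 lower (all genes at that level, 11.2% and 19.7%). Of 13 integrin adaptors compared 5 were higher and 2 lower. Of the 12 with 5 CPM or more in the endocrine classes 4 were higher and 2 lower (all genes at that level, 11.2% and 19.7%). Of 4 other intermediate filament genes compared 3 were higher, NES (nestin) only through duct-like cells, at 53.1 against 0.120 CPM. Of the 3 with at least 5 CPM in the endocrine classes 2 were higher, where 11.2% of all genes at that level were. These were KRT8 and KRT18 of simple epithelia, at 2176 and 2799 CPM in duct-like cells against 220 and 141 CPM. KRT19, also a marker of the duct-like class, was compared and not called. Of 7 cadherins and other epithelial or mesenchymal genes compared 5 were higher (20.2% of all genes). Of the 5 with at least 5 CPM in the endocrine classes 3 were (11.2% of all genes at that level). CDH1 (E-cadherin) and EPCAM were not called, with log2 ratios of 0.11 and -0.41.

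Markers of the duct-like class and of other cells were read beside these levels. All 14 duct-like markers were at 5 CPM or above in duct-like cells, with a summed level of 6620 and 4687 CPM in the no DOX- and DOX-labelled libraries. Of 12 mesenchymal markers 2 (TAGLN and ACTA2) reached 5 CPM and 5 were at 0 (DCN, LUM, POSTN, TCF21 and MEOX2), with summed levels of 291 and 151 CPM. Of 7 neural crest or Schwann cell markers 4 reached 5 CPM and 2 were at 0 (FOXD3 and CDH19), with summed levels of 312 and 154 CPM, where the other classes summed to at most 70.9 CPM. Of 10 endothelial markers 1 reached 5 CPM and 6 were at 0, among them PECAM1, CDH5 and VWF. Hepatocyte markers summed to 864 and 727 CPM and acinar markers to 145 and 498 CPM. All 14 markers of proliferating cells reached 5 CPM there, with summed levels of 1452 and 1606 CPM. The part of such cells in the levels of collagens, laminins, FN1 and VIM was not tested.

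The duct-like cells were then divided into 4 sub-clusters, a step chosen after the levels were known and again without the 78 genes. Sub-clusters 1 and 2 held 141 cells of the no DOX-labelled library and 85 of the DOX-labelled one. Sub-clusters 3 and 4 held 11 and 93. Sub-cluster 1 was led by NPPB and the cell cycle gene KIF14, sub-cluster 2 by GCG and CXCL14, sub-cluster 3 by CA4, CTSE and CYP26A1 and sub-cluster 4 by ALB and APOA2. Between the first and the second pair of sub-clusters 37 genes were compared, and 22 were higher in sub-clusters 1 and 2 (7.57% of all genes) and 3 in sub-clusters 3 and 4 (3.64% of all genes). Of the 22, 11 reached 5 CPM only in sub-clusters 1 and 2, and of the 3, 1 (ITGA5) only in sub-clusters 3 and 4.

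VIM was at 1050 CPM in sub-clusters 1 and 2 and at 101 CPM in sub-clusters 3 and 4, a log2 ratio of 3.38 (3.17 to 3.60). COL4A1 was at 107 against 13.6 CPM and COL4A6 at 47.9 against 3.67 CPM. COL9A1 was at 50.9 against 2.10 CPM. FN1 did not pass the threshold, with 1106 against 578 CPM and a log2 ratio of 0.94 (0.84 to 1.03). The 3 genes that were higher in sub-clusters 3 and 4 were COL6A1 (55.6 against 23.7 CPM), COL6A2 (20.4 against 7.98 CPM) and ITGA5 (20.4 against 1.93 CPM). SOX9 was present in each sub-cluster, at 257, 238, 346 and 262 CPM in sub-clusters 1 to 4. SOX10, the neural crest factor, was at 24.6, 28.7, 0 and 0 CPM in sub-clusters 1 to 4, and TAGLN at 250, 259, 23.4 and 10.8 CPM. The SOX10 and TAGLN levels thus moved with those of VIM, COL4A1 and COL9A1, and their part was not tested.

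**Figure D3:**
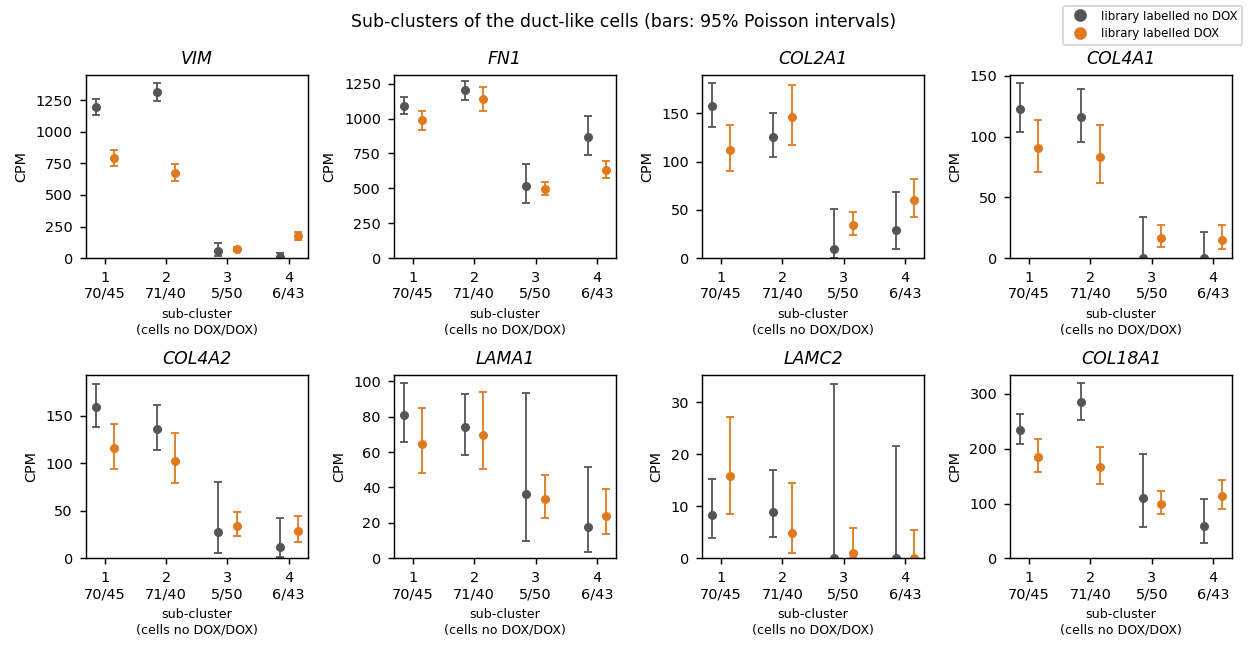
CPM of 8 genes in the 4 sub-clusters of duct-like cells, by library label, with 95% Poisson intervals and the number of cells (no DOX/DOX) under each. VIM, COL4A1 and COL4A2 lie higher in sub-clusters 1 and 2, and the intervals of the no DOX-labelled library are wide in sub-clusters 3 and 4, which hold 5 and 6 of its cells.

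Beta cell progenitor-like cells had the highest level of COL5A2, the alpha 2 chain of collagen V, which nucleates collagen I fibrils. COL5A2 (ENSG00000204262, chromosome 2 from 189031898 to 189225312) in these cells reached 1256 CPM under the no DOX label and 1091 CPM under the DOX label. It was at 500 and 378 CPM in proliferating progenitor-like cells and at 204 and 145 CPM in beta-like cells. In delta-like, duct-like and alpha-like cells it was at 38.9, 35.2 and 28.4 CPM over both libraries. The order of the first 3 classes is outside counting error, and the levels of delta-like and duct-like cells have overlapping intervals. COL5A2 was the gene lower in duct-like than in endocrine cells, at 35.2 against 350 CPM, a log2 ratio of -3.31 (-3.52 to -3.11). With doublets kept this ratio was -0.89 and the call was lost. Its chain partners in collagen V and in its mixed fibrils did not share this pattern, since beta cell progenitor-like cells had 0.186 CPM of COL5A1 and 0.635 CPM of COL1A1.

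Over beta-like cells, 18 genes were compared in beta cell progenitor-like cells, where 26.6% of all genes were higher and 3.75% lower. The median log2 ratio of all genes was 0.59. Of the 18, 6 were higher and 1 was lower. COL13A1, ITGA3, FN1 and VIM, 4 of the 6, reached 5 CPM only in beta cell progenitor-like cells. Among the 14 with that level in beta-like cells 2 were higher and 1 lower, where 21.4% and 4.24% of all genes were. COL5A2 had a log2 ratio of 2.78 (2.76 to 2.79). COL13A1, a transmembrane collagen of cell contacts, was at 12.3 against 0.279 CPM, a log2 ratio of 5.47 (5.14 to 5.81). LAMB1 was at 54.7 against 9.39 CPM, a log2 ratio of 2.54 (2.48 to 2.61). ITGA3, an alpha chain of a laminin receptor, was at 11.3 against 4.72 CPM. FN1 (14.8 against 3.09 CPM) and VIM (8.19 against 1.96 CPM) were also higher. COL3A1, which lies next to COL5A2 on chromosome 2 (188974373 to 189012746) and encodes a collagen of soft connective tissue, went the other way, with 8.16 CPM in beta-like cells against 0.287 CPM, a log2 ratio of -4.83 (-5.34 to -4.36).

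ITGB1, LAMB1, LAMB2, FN1 and VIM were higher in alpha-like than in beta-like cells. Over beta-like cells 19 genes were compared, and 7 were higher (6.2% of all genes) and 3 lower (5.27%). Of the 7, 4 (ITGA6, FN1, VIM and COL9A2) reached 5 CPM only in alpha-like cells. Among the 14 with that level in beta-like cells 3 were higher and 3 lower, beside 3.23% and 5.61% of all genes there. ITGB1 was at 718 and 793 CPM in alpha-like cells and at 232 and 244 CPM in beta-like cells of the no DOX- and DOX-labelled libraries, a log2 ratio of 1.66 (1.64 to 1.67). ITGA6 was at 7.04 against 1.29 CPM and ITGA1, not called, at 65.6 against 34.2 CPM. FN1 was at 77.1 against 3.09 CPM, a log2 ratio of 4.64 (4.54 to 4.74), and VIM at 21.9 against 1.96 CPM. LAMB1, LAMB2 and COL9A2 were the others higher, and COL3A1, COL5A2 and COL4A6 were lower. ITGB1 was thus highest in alpha-like cells of all classes, followed by proliferating progenitor-like cells at 485 CPM.

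COL14A1 and COL25A1 were higher in delta-like than in beta-like cells. Of 21 genes compared with beta-like cells, 7 were higher (5.02% of all genes) and 4 lower (5.91%). All of the 7 but LAMB2 reached 5 CPM only in delta-like cells. Among the 14 with that level in beta-like cells 1 was higher and 4 were lower, beside 2.6% and 6.27% of all genes. COL14A1, which binds the surface of collagen fibrils, was at 16 and 17.9 CPM in delta-like cells and at 0.0850 and 0.0781 CPM in beta-like cells of the no DOX- and DOX-labelled libraries, a log2 ratio of 7.69 (7.10 to 8.36). In every other named class it stayed under 1 CPM over both libraries. COL25A1, a transmembrane collagen of neurons, was at 13.0 against 0.487 CPM, a log2 ratio of 4.74 (4.47 to 5.01). COL1A2 (11.2 against 4.65 CPM), COL9A2, LAMB2 (20.6 against 5.90 CPM), FN1 and VIM were the others higher. COL18A1 was lower, at 21.4 against 48.3 CPM, with COL3A1, COL5A2 and COL4A6.

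LAMA1 and VIM were the 2 of 17 genes called higher in proliferating progenitor-like cells over the endocrine classes summed. This share, 11.8%, was close to the 11.4% of all genes that were higher, and none was lower (2.35%). LAMA1 reached 5 CPM in the first group only. Of the 15 with at least 5 CPM in the endocrine classes 1 was higher (6.67%), beside 6.34% of all genes at that level. LAMA1 was at 10.4 and 7.26 CPM in the no DOX- and DOX-labelled libraries, against 1.66 and 1.35 CPM in the endocrine classes, a log2 ratio of 2.56 (2.29 to 2.81). VIM was at 17.3 and 21.5 CPM against 8.62 and 8.55 CPM, a log2 ratio of 1.17 (1.0 to 1.34). Over both libraries its 19.3 CPM in this class lay below the 21.9 CPM of alpha-like cells. The VIM call was lost with each cell weighted equally (0.89), with a UMI minimum of 2000 (0.97) and with Leiden resolution 0.5 (0.87). Of its UMIs 54.4% and 53.3% lay in 8 of 476 and 12 of 489 cells.

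The other genes of matrix and adhesion split in the same comparisons. Over beta-like cells, LOXL4 was lower in delta-like (3.12 CPM), beta cell progenitor-like (3.43 CPM) and alpha-like cells (12.3 CPM), where beta-like cells had 74.9 CPM. The collagen enzymes and chaperones had 2 higher and 3 lower of 17 compared in beta cell progenitor-like cells (all genes 26.6% and 3.75%), 1 and 3 in alpha-like cells (6.2% and 5.27%) and 0 and 4 in delta-like cells (5.02% and 5.91%). Of the 3 lower in beta cell progenitor-like cells, LOXL2 and LOXL4 reached 5 CPM on the beta-like side only. Of 13 integrin adaptors compared 5 were higher in beta cell progenitor-like cells (PXN, ILK, LIMS1, PARVA and PARVB) and 1 was lower (TLN2), beside the same 26.6% and 3.75% of all genes. PARVA reached 5 CPM on the beta cell progenitor-like side only, and TLN2 on the beta-like side only. CD44, a receptor for hyaluronan, was higher in alpha-like cells (7.20 CPM) and in beta cell progenitor-like cells (12.7 CPM) than in beta-like cells (0.537 CPM). In both comparisons CD44 reached 5 CPM on the higher side only. For these lists the shares among genes with 5 CPM in beta-like cells were not read.

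The share of cells with at least 1 UMI was read after each cell was thinned to 5000 UMIs, and cells under that depth were left out. These were 6 duct-like cells of the no DOX-labelled library and 1 of the DOX-labelled one. Over both libraries 1100 of 9179 alpha-like, 660 of 16635 beta-like and 378 of 10885 beta cell progenitor-like cells were left out too. VIM had a UMI in 70.3% (65.0 to 75.2) of duct-like cells and in 0.701% (0.578 to 0.843) of beta-like cells, which serve as the background here (without thinning 78.2% and 1.74%). The median depths of these classes were 14516.5 and 15902 UMIs. FN1 had a UMI in 92.9% of duct-like, 28.1% of alpha-like and 1.52% of beta-like cells. COL5A2 had a UMI in 94.4% of beta cell progenitor-like, 35.2% of beta-like, 12.3% of alpha-like and 10.5% of duct-like cells. COL13A1 had a UMI in 6.08% of beta cell progenitor-like cells and in 0.156% of beta-like cells, so most beta cell progenitor-like cells had none at this depth.

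The part of the VIM UMIs held by cells with at least 5 of them varied among the classes other than duct-like. It ran from 20.1% in beta cell progenitor-like to 54.4% in proliferating progenitor-like cells, both of the no DOX-labelled library. In alpha-like cells of the no DOX-labelled library, 75 of 5064 cells had at least 5 VIM UMIs and held 42.9% of the VIM UMIs of the class. In those of the DOX-labelled library, 57 of 4115 cells held 35.3%. FN1 was spread more evenly there, with 30.2% and 25.7% of its UMIs in the 229 and 147 alpha-like cells that had at least 5.

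Finer clusters showed differences inside the classes. The beta-like cells held a cluster led by MFAP4, a matrix protein of elastic fibres, with 1047 cells of the no DOX-labelled library and 2047 of the DOX-labelled one. Over the other beta-like clusters, 18 genes were compared, and 6 were higher (2.14% of all genes) and none was lower (2.54%). Of the 6, 5 (all but COL18A1) reached 5 CPM only in this cluster. COL5A1 was at 14.3 against 0.509 CPM, a log2 ratio of 4.81 (4.53 to 5.10). COL1A2 was at 13.7 against 2.77 CPM and COL18A1 at 93.8 against 39.3 CPM. COL4A5, COL4A6 and ITGA9 were the others, with log2 ratios of 1.05, 1.34 and 2.49.

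Beta cell progenitor-like cells lay mainly in a fine cluster led by NTRK3 (6998 cells), one led by CA2 (1286 cells) and one led by GPC3, which had no name of its own at this resolution and of whose 2340 cells 2174 belonged to the class. COL5A2 was at 1258 CPM in the cluster led by NTRK3, 1237 CPM in that led by GPC3 and 665 CPM in that led by CA2. COL13A1 did not follow COL5A2, with 13.9, 0.767 and 39.9 CPM in these clusters. In the cluster led by CA2 against that led by NTRK3, 3 of 17 genes were higher (3.1% of all genes) and 3 lower (4.94%). COL8A1, COL27A1 and COL4A5 of these reached 5 CPM only in the cluster where they were higher. COL8A1 (7.14 against 0.824 CPM), COL13A1 and ITGB8 were higher, and COL27A1, COL4A5 and LAMC1 (19.9 against 42.2 CPM) were lower. In the cluster led by GPC3 against that led by NTRK3, 2 of 18 genes were higher (2.28% of all genes) and 2 lower (5.63%). COL13A1, one of the 2 lower, reached 5 CPM only in the cluster led by NTRK3. COL27A1 was at 38.0 against 9.26 CPM and FN1 at 28.3 against 13.4 CPM, while COL13A1 and COL18A1 (44.8 against 115 CPM) were lower.

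**Figure D4:**
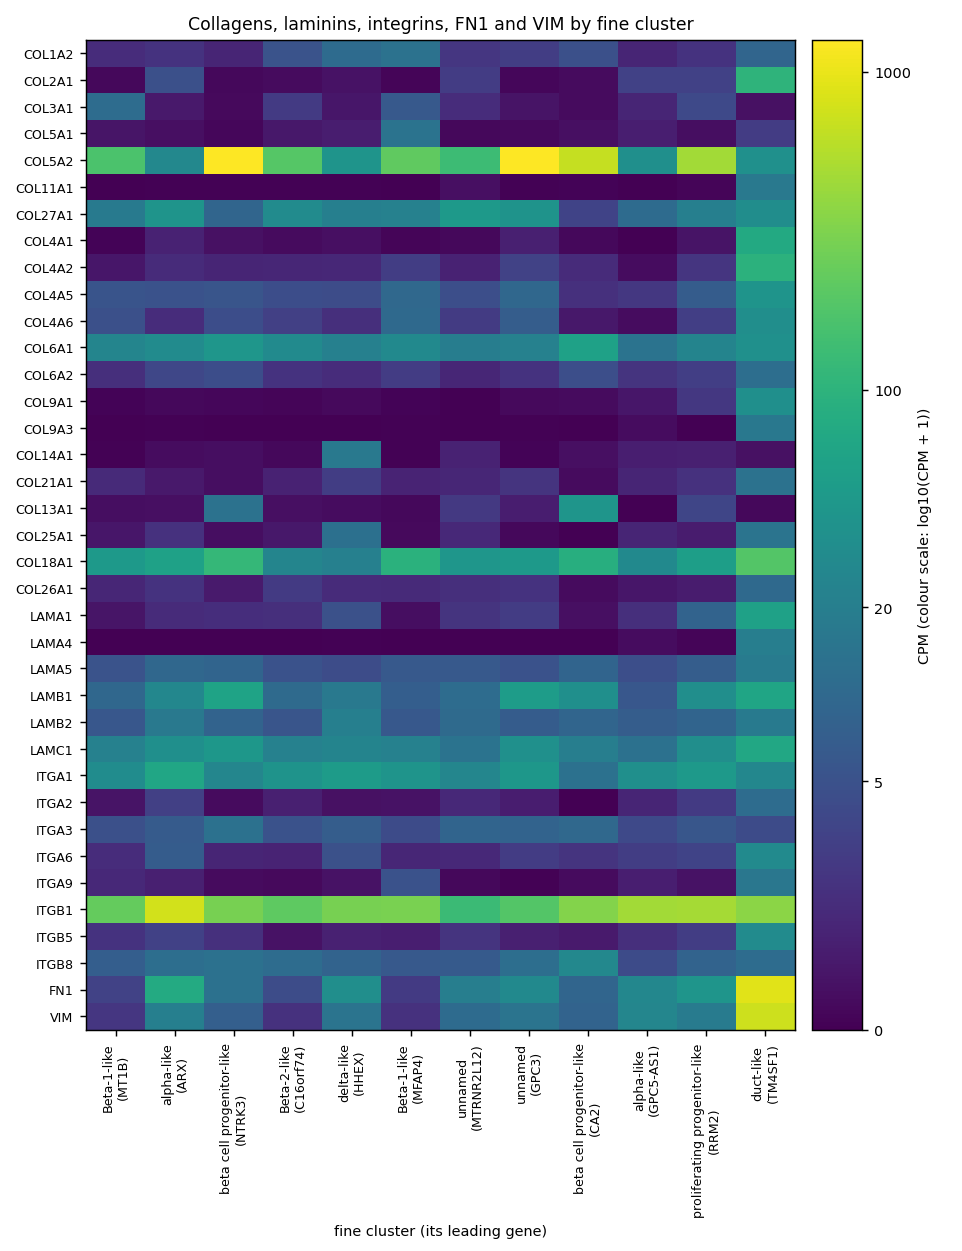
Levels of the genes with at least 10 CPM in a fine cluster (rows) in each fine cluster of at least 50 cells (columns, with the leading gene), both libraries summed, as CPM on a colour scale of log10(CPM + 1). COL5A2 is at 1258 CPM in the cluster led by NTRK3 and at 1237 CPM in that led by GPC3, and COL13A1 at 39.9 CPM in that led by CA2.

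The comparison between the libraries asked how these genes stood in cells labelled as treated with doxycycline. Over all cells 15 genes were compared by a log2 ratio of at least 0.5, and 0 were called, where 1.02% of all genes were called in either direction. VIM was at 17.5 CPM in the no DOX-labelled library and 13.0 CPM in the DOX-labelled one, a log2 ratio of -0.44 (-0.49 to -0.38). FN1 was at 35.8 and 28.4 CPM, a log2 ratio of -0.34 (-0.38 to -0.29), and COL5A2 at 385 and 308 CPM, a log2 ratio of -0.32 (-0.34 to -0.31). ITGB1 was at 351 and 356 CPM. With every named class weighted equally 12 of 29 genes were lower (1.27% of all genes) and 1 was higher (0.718%), VIM among them at -1.29, a weighting in which the few duct-like cells count as much as any class. Of the 12, COL11A1, COL9A1, COL25A1, LAMA4 and ITGB5 reached 5 CPM under the no DOX label only. The 1 that was higher, COL6A2, reached 5 CPM under the DOX label only.

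In duct-like cells 21 of 37 genes were lower in the DOX-labelled library, where 10.3% of all genes were lower, and 3 were higher, where 9.4% were. COL7A1 and COL9A2, 2 of the 21, reached 5 CPM under the no DOX label only. The median log2 ratio of the 37 was -0.64 and that of all genes was -0.01. VIM went from 1111 to 406 CPM, a log2 ratio of -1.45 (-1.55 to -1.36). COL4A1, COL4A2, COL4A5 and COL4A6 had log2 ratios of -1.11, -0.97, -1.0 and -1.20. LAMA4 (30.9 and 11.8 CPM) and ITGB5 (46.2 and 17.0 CPM) were also lower. COL6A1, a chain of the beaded filaments around cells, was higher, with 24.1 and 43.3 CPM, a log2 ratio of 0.84 (0.39 to 1.31). FN1, at -0.48 (-0.56 to -0.40), was not called. The duct-like cells with at least 5 VIM UMIs numbered 130 of 152 (85.5%) in the no DOX-labelled library and 86 of 178 (48.3%) in the DOX-labelled one. After thinning, 91.8% (86.1 to 95.7) and 52.5% (44.9 to 60.1) of duct-like cells had a VIM UMI.

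The mix of duct-like sub-clusters moved with these differences, since 141 of 152 cells of the no DOX-labelled library and 85 of 178 of the DOX-labelled one lay in sub-clusters 1 and 2. With the 4 sub-clusters weighted equally, 11 of the 37 genes were lower and 5 higher instead of 21 and 3, and 10 of the 24 calls kept their direction. COL21A1, ITGA1, ITGA2 and ITGB8 were then called higher (1.17, 0.72, 1.03 and 0.63), and none of the 4 collagen IV genes was called. VIM then had a log2 ratio of -0.59, COL4A1 of -0.22 and FN1 of -0.18. Among the 24 genes called before, COL6A1 (-0.06), COL2A1 (0.13) and ITGA5 (-0.97) changed direction. The weights here include sub-clusters with 5 and 6 cells of the no DOX-labelled library. The share of all genes called under this weighting was not read, so the counts of 11 and 5 give no result about these genes as a set. Within sub-cluster 1 VIM was at 1197 and 792 CPM, a log2 ratio of -0.60 (-0.73 to -0.46), and within sub-cluster 2 at 1311 and 673 CPM, a log2 ratio of -0.96 (-1.13 to -0.80). Within sub-cluster 1, 9 of 27 genes were lower (11.6% of all genes) and 4 higher (7.97%), and within sub-cluster 2, 6 of 25 were lower (9.37%) and 1 higher (13.0%). LAMA4, COL11A1 and VIM were lower and COL6A1 higher within both. Within sub-cluster 3, 1 of 10 genes was higher (26.5% of all genes) and 0 lower (14.4%), and within sub-cluster 4, 4 of 10 were higher (28.0%) and 0 lower (14.2%). The gene in sub-cluster 3 was COL2A1, and those in sub-cluster 4 were COL2A1, COL5A2, COL18A1 and VIM. VIM thus went the other way in sub-cluster 4, at 11.8 and 172 CPM on 2 and 115 UMIs, a log2 ratio of 3.88 (1.99 to 6.94).

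In the other classes few of these genes passed the threshold. In beta cell progenitor-like cells 2 of 17 were higher in the DOX-labelled library (0.527% of all genes) and 0 lower (0.499%). COL13A1 was at 9.35 and 15.7 CPM, a log2 ratio of 0.75 (0.61 to 0.90), and VIM at 5.50 and 11.3 CPM, a log2 ratio of 1.04 (0.85 to 1.22). By fine cluster COL13A1 was at 11.0 and 17.2 CPM in that led by NTRK3, a log2 ratio of 0.65 (0.47 to 0.83). It was at 33.0 and 44.7 CPM in that led by CA2, a log2 ratio of 0.44 (0.16 to 0.72) under the threshold, and at 0.649 and 0.925 CPM in that led by GPC3. The mix of these clusters moved with the call, since the cluster led by CA2 held 499 cells under the no DOX label and 787 under the DOX label, and its part in the call was not tested. After thinning, 4.29% and 7.84% of beta cell progenitor-like cells had a COL13A1 UMI. In beta-like cells 1 of 15 was higher (0.275% of all genes) and 0 lower (0.936%), namely COL1A2, a chain of collagen I, with 3.18 and 5.88 CPM, a log2 ratio of 0.89 (0.72 to 1.06). It thus reached 5 CPM under the DOX label only. The cluster led by MFAP4, where COL1A2 was higher, held 1047 of 6891 and 2047 of 9744 beta-like cells. Within that cluster COL1A2 was at 10.3 and 15.6 CPM, a log2 ratio of 0.60 (0.34 to 0.85), and in the beta-like clusters led by MT1B and C16orf74 the log2 ratios were 0.62 and 0.82. COL1A2 was also the 1 gene called of 19 in delta-like cells, with 9.21 and 14.1 CPM, where 0.44% of all genes were higher and 0.49% lower. In alpha-like cells 0 of 16 were called, where 1.29% of all genes were. In proliferating progenitor-like cells COL9A2, which reached 5 CPM under the DOX label only, was called higher, at 0.61 (-0.03 to 1.27), and LAMA1 lower, at -0.51 (-1.02 to -0.02), of 17 compared, where 2.37% and 2.45% of all genes were. The interval of COL9A2 spans both signs, so its direction lies within counting error.

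COL5A2 was below the threshold in every class but had a negative log2 ratio in 5 of the 6. It was -0.49 in alpha-like and in beta-like cells, -0.41 in delta-like and in proliferating progenitor-like cells, -0.20 in beta cell progenitor-like cells, and 0.17 (-0.25 to 0.60) in duct-like cells. By fine cluster it was -0.57 in the beta-like cluster led by MFAP4, -0.21 in the cluster led by NTRK3 and -0.00 (-0.03 to 0.03) in that led by GPC3.

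**Figure D5:**
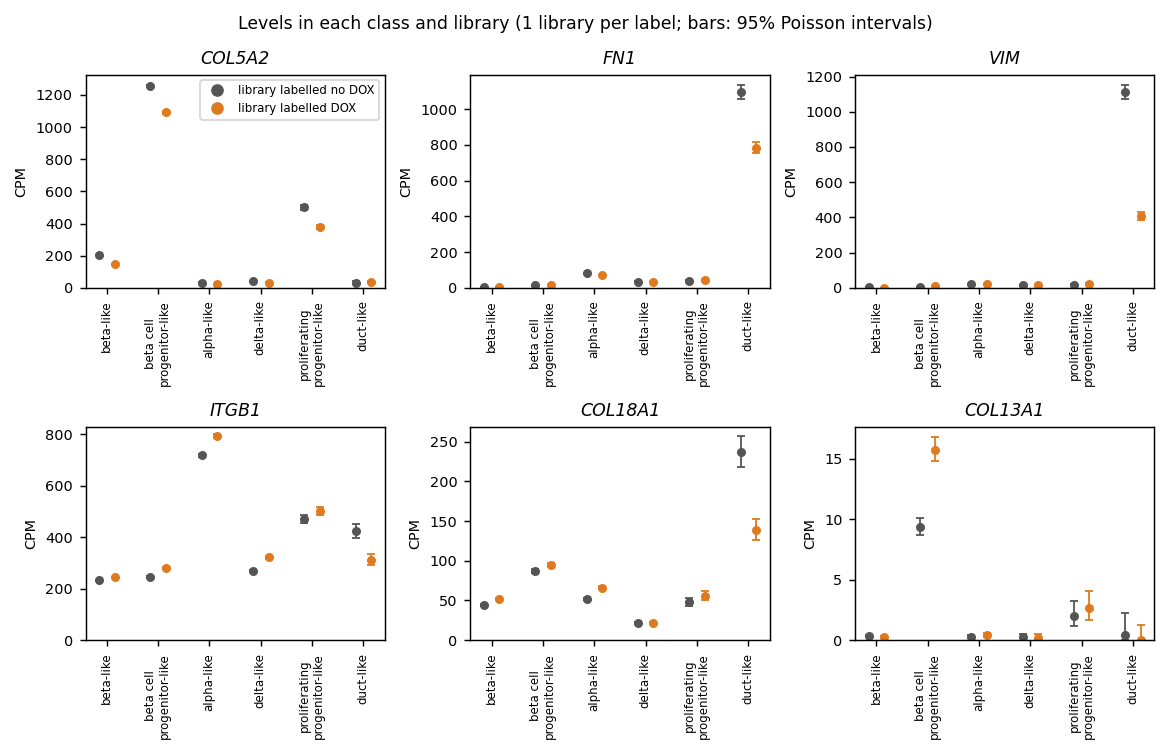
CPM of COL5A2, FN1, VIM, ITGB1, COL18A1 and COL13A1 in each class, by library label, with 95% Poisson intervals (1 library per label). VIM in duct-like cells is at 1111 CPM in the no DOX-labelled library and 406 CPM in the DOX-labelled one, and COL13A1 in beta cell progenitor-like cells at 9.35 and 15.7 CPM.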

How the data were processed

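Single cell RNA-seq of eBCs gave 1 library per condition. The authors deposited UMI counts per gene and barcode without normalization. The submitters' processing notes name Cell Ranger 3.0, kallisto, bustools 0.40.0, Scanpy, Seurat and GRCh38, and the file headers give Cell Ranger version 3.0.2. Which tool made the deposited counts is not given in the sources used here.

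Barcodes under 1000 UMIs were dropped (30288 and 31817 barcodes were in the files for no DOX and DOX, with 550240855 and 520849221 UMIs), and Scrublet (scanpy 1.11.5) removed 7895 and 8338 doublets. Counts were scaled to 10000 per cell. Of 2293 highly variable genes, 18 were among the 78 described and were left out before 50 principal components, 3 neighbours in each library and Leiden clustering (leidenalg 0.10.2) at a resolution of 0.2 for classes and 0.5 for fine clusters. No annotation of the authors was used here, so the classes were rebuilt from marker lists, and a difference from the study may come from rebuilt names. Sub-clusters of duct-like cells (resolution 0.3, 15 components, 10 neighbours), the ratios inside them and inside fine clusters were chosen after seeing the data.

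UMIs were summed per class and library as CPM. A gene was compared with at least 5 CPM in 1 group and 30 UMIs over both, and called at a log2 ratio of at least 1 between classes or 0.5 between libraries. With 1 library per condition there was no test. Intervals are exact Poisson (levels), conditional binomial (ratios) and Clopper-Pearson (shares), from scipy 1.17.1. Genes were named with their values if they reached 20 CPM in a class or were called over all cells, with FN1, COL5A2 and COL13A1, which the study lists. Others are named where they are few in a count, after their values were seen. The genes and lists were chosen with earlier results of these data known. Positions are from GENCODE 44, for 78 of 78 genes. The scripts were tested on simulated data. Alternatives covered cell filters, doublets, clustering, thresholds, weighting and scaling.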

Additional observations from a re-analysis of the deposited data

Results flagged for a closer look

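VIM differed in direction between classes: DOX-labelled against no DOX-labelled, its log2 ratio came to 1.04 (0.85 to 1.22) in beta cell progenitor-like cells and -1.45 (-1.55 to -1.36) in duct-like cells. With 1 library per label this difference was not tested. In beta cell progenitor-like cells 216 of 5421 and 346 of 5464 cells had a VIM UMI, and the 12 and 28 cells with at least 5 held 20.1% and 29.8% of these UMIs.

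COL27A1 was at 46.6 CPM in the cluster led by mitochondrial genes, which entered no comparison. Among the named classes it was highest in alpha-like cells, at 38.8 CPM.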

How the results depend on the processing

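No paired analysis was possible because there was 1 library per condition. The count of 30 genes called in duct-like over endocrine cells was 16 with a minimum of 20 CPM and 54 with no minimum. The 2 called in proliferating progenitor-like cells were 1 with a UMI minimum of 2000, with Leiden resolution 0.5, with a fold of 2 or with each cell weighted equally, 0 with a minimum of 20 CPM and 27 with no minimum. The 28 calls over beta-like cells were 17 with a fold of 2, 11 with a minimum of 20 CPM and 97 with no minimum. Over all cells the 0 calls between libraries became 15 with no minimum of CPM and 13 with every class weighted equally. The number of genes compared and the share of all genes called can change with these settings too. They are not given beside these counts, which therefore describe only how far the number of calls moves. The share of duct-like cells with a VIM UMI was 62.0% when thinned to 2500 UMIs. With doublets kept there was no proliferating progenitor-like class, hence no value, and the COL5A2 log2 ratio of duct-like over endocrine cells went from -3.31 to -0.89 and that of LAMC1 from 1.37 to 0.97, which ends both calls. COL18A1 between the libraries over all cells went from 0.17 to -0.19 with every class weighted equally. Of the values of single genes 339 stayed within their limits and 57 moved. In each of these, the cause was not tested. Duct-like values rest on 152 and 178 cells.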
